A study of Mus musculus with 14 samples.

Results

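Histone H3 acetylated at lysine 27 (H3K27ac) marks active promoters and enhancers. Long stretches of a chromosome can be without a listed site of this mark. Such a stretch need not lack active elements, since weak sites or sites in repeated sequence may not be listed. In the iMEF H3K27ac list, 652 of 4722 autosomal bins of 0.5 Mb (13.8%) had no site, which amounted to 326 of 2361 Mb. The bins were laid from the first base of chromosomes 1 to 19 of the mouse genome mm10, bins with 10% or more unknown bases (N) were set aside, and a bin was selected if no site of the list overlapped it. The bins were thus chosen by the measured sites, and counts of sites in and around them are given as a description without a test. Sequence and gene annotation were not used for the choice.

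The sites came from immortalised mouse embryo fibroblasts (iMEF) of clone NG3, a cell line grown from 1 cell after deletion of an exon of the endogenous Ash2l by an inducible Cre-ER recombinase. All cells, controls included, expressed human ASH2L with an N-terminal FKBP12F36V tag, which the compound dTAG-13 links to a ubiquitin ligase for degradation. The 12 H3K27ac libraries comprised 2 of control cells and 2 each of cells exposed to dTAG for 30 min, 2, 4, 8 and 16 h, and 2 input libraries were of control cells and of cells after 16 h. The list joins the peaks of all these samples, and how they were joined is not given in the sources used here. A bin without a site is therefore one without a listed site in a list that covers control cells and the 5 time points, and no value per sample, read depth or replicate error could be given.

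Acetylation of H3K27 is carried out by p300 and CBP at nucleosomes next to bound transcription factors, and it is found at promoters rich in CpG and at enhancers of the cell type at hand. Genes of other lineages can lack the mark over their whole locus. Several large mammalian gene families, such as odorant and pheromone receptors, lie in tandem clusters that are expressed in a few specialised cells only, and many genes of synaptic adhesion are among the longest of the genome.

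The sequences at the limits and inside of the bins without a site differed in their CpG dinucleotides, which are set in capitals below. The first pair is the middle 300 bases of the sites that bound the longest run of bins without a site, at chr8:95887551-95887850 and chr8:101770807-101771106 on the plus strand of GRCm38. The first of these lies inside Got2, which encodes a mitochondrial aminotransferase, and the second overlaps no annotated gene. The other 3 are the 250 bases before and 50 bases after the 5′ end of genes that start in bins without a site, each on the strand of its gene. Irx2 at chr13:72628570-72628869 (plus strand) and Sox1 at chr8:12395045-12395344 (plus strand) have the longest CpG islands of all coding genes in these bins. Vmn2r10 at chr5:109006478-109006777 (minus strand) is the first vomeronasal receptor in genome order that starts in a bin without a site.
Site before the longest run: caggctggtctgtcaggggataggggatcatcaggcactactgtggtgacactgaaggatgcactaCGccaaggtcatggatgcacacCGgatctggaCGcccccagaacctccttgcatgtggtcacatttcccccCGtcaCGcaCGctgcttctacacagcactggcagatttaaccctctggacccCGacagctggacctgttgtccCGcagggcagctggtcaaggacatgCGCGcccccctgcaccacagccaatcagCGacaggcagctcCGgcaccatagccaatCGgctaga
Site after the longest run: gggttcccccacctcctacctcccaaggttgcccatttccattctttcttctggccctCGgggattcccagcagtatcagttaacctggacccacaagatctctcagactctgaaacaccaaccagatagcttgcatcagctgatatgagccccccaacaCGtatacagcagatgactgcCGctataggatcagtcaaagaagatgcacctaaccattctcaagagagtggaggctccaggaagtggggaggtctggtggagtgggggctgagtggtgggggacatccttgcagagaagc
Irx2: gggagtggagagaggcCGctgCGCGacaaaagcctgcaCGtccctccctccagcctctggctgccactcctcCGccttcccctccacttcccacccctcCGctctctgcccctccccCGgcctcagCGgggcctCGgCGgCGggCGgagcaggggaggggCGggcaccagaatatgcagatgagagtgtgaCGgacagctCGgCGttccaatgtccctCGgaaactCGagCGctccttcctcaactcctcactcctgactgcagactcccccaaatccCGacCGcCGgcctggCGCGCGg
Sox1: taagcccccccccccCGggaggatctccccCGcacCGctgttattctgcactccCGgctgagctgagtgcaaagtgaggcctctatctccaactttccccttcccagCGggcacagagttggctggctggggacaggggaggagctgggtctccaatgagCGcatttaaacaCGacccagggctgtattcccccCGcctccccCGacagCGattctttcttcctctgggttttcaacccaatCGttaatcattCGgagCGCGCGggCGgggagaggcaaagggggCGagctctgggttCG
Vmn2r10: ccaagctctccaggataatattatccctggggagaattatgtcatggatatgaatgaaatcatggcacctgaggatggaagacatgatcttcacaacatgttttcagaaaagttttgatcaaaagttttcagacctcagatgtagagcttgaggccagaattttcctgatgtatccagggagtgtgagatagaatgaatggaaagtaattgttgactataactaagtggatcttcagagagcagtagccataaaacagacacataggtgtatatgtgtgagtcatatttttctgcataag

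These windows held 13 CpGs in the site before the run, 3 in the site after it, 25 at Irx2, 18 at Sox1 and 0 at Vmn2r10. The motif counted was CG, which reads the same on both strands. A window of the same length around the 5′ end of all 20308 coding genes held a median of 12 CpGs, and 94.9% of these windows had at least 1. For the 1182 coding genes that start in bins without a site, the median was 1 and the share with at least 1 was 75.5%, compared to 13 and 96.1% for the 19126 coding genes in the other bins. As many CpGs as at Sox1 were found at 106 of the 1182 genes (8.97%) and at 38.8% of the genes elsewhere. Receptor genes, described below, lowered these values. The 651 other genes in bins without a site had a median of 2, and 88.0% had at least 1. All 106 genes with as many CpGs as Sox1 were among them (16.3%). For olfactory receptors the median was 1 both in bins without a site (n = 370) and in other bins (n = 758).

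The share of bins without a site varied between chromosomes (13.3 ± 6.56%, SD, n = 19 autosomes). It was highest on chromosomes 14 (57 bins, 23.9%), 7 (64 bins, 23.0%), 6 (62 bins, 21.5%), 1 (80 bins, 21.2%) and 17 (38 bins, 21.0%). The lowest shares were found on chromosomes 10 (10 bins, 3.98%) and 19 (6 bins, 5.22%). Chromosomes of intermediate share included those next to chromosome 14 in number, 13 (8.58%) and 15 (9.55%).

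**Figure D1:**
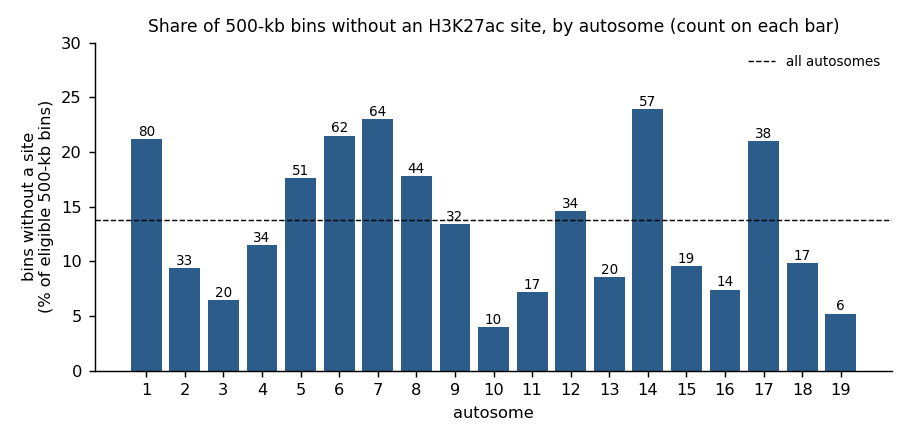
Share of eligible bins of 500 kb without an H3K27ac site (y axis, percent) on each autosome (x axis), with the number of such bins on each bar and the share over all autosomes, 13.8%, as a dashed line. Chromosomes 1, 6, 7, 14 and 17 are above 20% and chromosomes 10 and 19 have the lowest bars.

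The bins without a site formed 335 runs of neighbouring bins. Of these, 186 were bins on their own and 149 were runs of 2 or more, which held 466 of the 652 bins (71.5%). The 43 runs of 4 or more bins, at least 2.0 Mb in length, held 224 bins (34.4%). The stretch free of sites around a run had a median of 1130 kb and reached 5.88 Mb, and 4 runs had a site on 1 side only. A stretch that held more than 1 run was counted for each run. Between neighbouring sites there were 536 gaps of 500 kb or more, 0.446% of 120098, and 204 of these were 1 Mb or more.

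Sites became more frequent with distance from these bins. The median was 8 sites in the bins 0.5 Mb away, 19 at 1.0 Mb, 21 at 1.5 Mb and 25 at 2.0 Mb, with values of 23 to 28 from there to 6.0 Mb. Just outside the rule were 194 bins with 1 site, 155 with 2, 138 with 3 and 135 with 4. The only site of the 194 bins had a median width of 301.5 bp and 20 of them (10.3%) had the minimum width of 200 bp, compared to 402 bp and 5.78% for all 120117 autosomal sites. The sites at the ends of runs were narrow in the same way, with a median of 338 bp and 9.76% at the minimum (n = 666 ends of runs). A site that bounds more than 1 run was counted for each. On the limit for N, 13 of the 652 bins had any unknown base, up to 7.84% of the bin, and 137 bins without a site were left out because they had 10.0% or more, 114 of them N throughout.

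**Figure D2:**
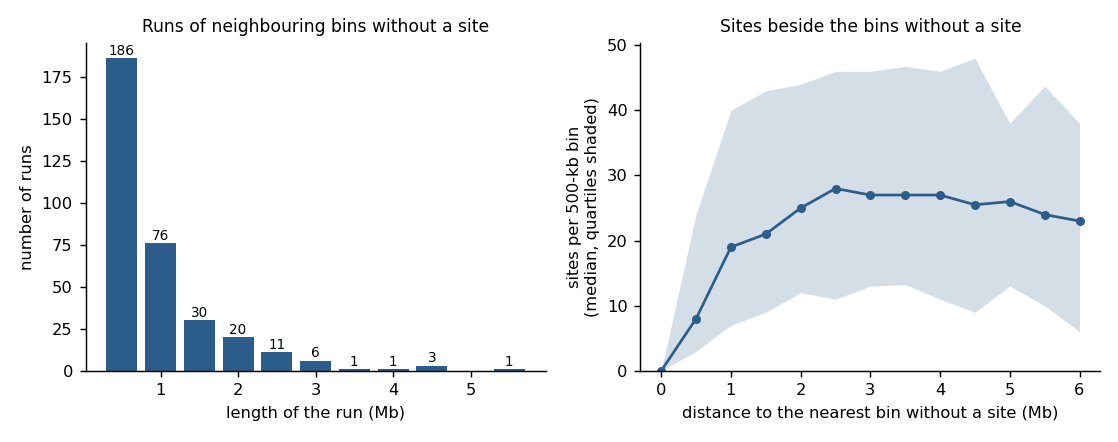
Left, number of runs (y axis) by the length of the run in Mb (x axis). Right, sites per bin of 500 kb (y axis; points are medians and the shaded area spans the quartiles) against the distance to the nearest bin without a site in Mb (x axis). Runs of 0.5 Mb were the most frequent with 186, the longest was 5.5 Mb, and the median number of sites rose from 8 at 0.5 Mb to 19 at 1.0 Mb.

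The longest run lay on chromosome 8 from 96000001 to 101500000 (11 bins). The sites next to it left 5.88 Mb free, from 95888408 to 101770785, and the only coding gene that starts in the 11 bins is Cdh8, a type II cadherin of neurons. Its GC content was 37.3%, and 89.2% of its sampled words of 50 bases occurred once in the genome. The next 3 runs had 9 bins, or 4.5 Mb. On chromosome 1 from 25000001 to 29500000 the coding genes were Adgrb3, an adhesion G protein-coupled receptor of the brain, 4931408C20Rik and Gm597. On chromosome 1 from 100500001 to 105000000 the coding gene was Cdh20, another cadherin. On chromosome 6 from 102000001 to 106500000 they were Cntn3, Cntn6 and Cntn4, which encode contactins, and Chl1, a neural adhesion molecule of the L1 family.

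A run of 8 bins on chromosome 1 from 114000001 to 118000000 contained Cntnap5a and 6 coding genes without a descriptive name, Gm19965, Gm28363, B020011L13Rik, Gm28360, Gm28168 and Gm7145. A run of 7 bins on chromosome 14 from 82500001 to 86000000 contained Pcdh17, a protocadherin. Of the runs of 6 bins, the first on chromosome 6 contained Cntnap2, which encodes a contactin-associated protein of axons, the second Gm9008, and that on chromosome 7 Luzp2.

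The run of 6 bins from 3000001 to 6000000 on chromosome 14 was of another kind. It directly follows the N of the chromosome start and holds the 5′ ends of 63 coding genes, beginning with Gm2888 and Gm2897, and 26 of the 297 CpG islands of all bins without a site. A median of 6.0% of the sampled words of its bins occurred once in the genome and 62.0% of the bases were repeats. In the other 9 of the 10 longest runs, 84.6 to 90.6% of the words occurred once. Whether reads from repeated sequence were left out upstream was not tested.

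The sequence of the bins without a site was poorer in GC and richer in repeats than that of bins with sites. The median GC content was 38.3% and the median repeat share 41.5%, compared to 42.1% and 30.7% for the 4070 bins with at least 1 site. Chromosomes were taken as units, since neighbouring bins are not independent, and the values without and with a site were compared by an exact permutation test, two-sided, in which the sign of the difference of each of 19 autosomes was flipped, with adjustment over 5 measures. GC content was 38.7 ± 1.19% compared to 42.3 ± 1.12% (SD, n = 19), with a difference of -3.58 ± 1.43 percentage points that was negative on all 19 autosomes (exact permutation test, adjusted p = 4.77e-06). The repeat share was 40.3 ± 4.5% compared to 30.7 ± 1.33%, a difference of 9.6 ± 4.77 that was positive on 18 of 19 autosomes (exact permutation test, adjusted p = 7.63e-06). The exception was chromosome 16, where the bins without a site had 30.8% repeats and the others 32.1%.

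The share of words of 50 bases that occur once in the genome, a measure of where short reads can be placed, was also lower in the bins without a site. It was 87.9 ± 2.69% compared to 92.8 ± 0.907% (SD, n = 19), a difference of -4.91 ± 2.94 found on all 19 autosomes (exact permutation test, adjusted p = 4.77e-06). At least 80% of the words occurred once in 564 of the 652 bins (86.5%) and in 3885 of the 4070 bins with sites (95.5%). Fewer than 50% did so in 39 of the 652 bins without a site (5.98%) and in 31 of the 4070 bins with sites. The lowest value was 1.0%, on chromosome 7 from 22000001 to 22500000, a bin with 9 genes and pseudogenes of vomeronasal receptors. When all bins below 80% were left out, the differences between bins without and with sites were -3.98 in GC content and 7.74 in repeat share (18 autosomes with at least 5 such bins, exact permutation test, adjusted p = 1.27e-05 and 1.53e-05), a comparison chosen after seeing the data.

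**Figure D3:**
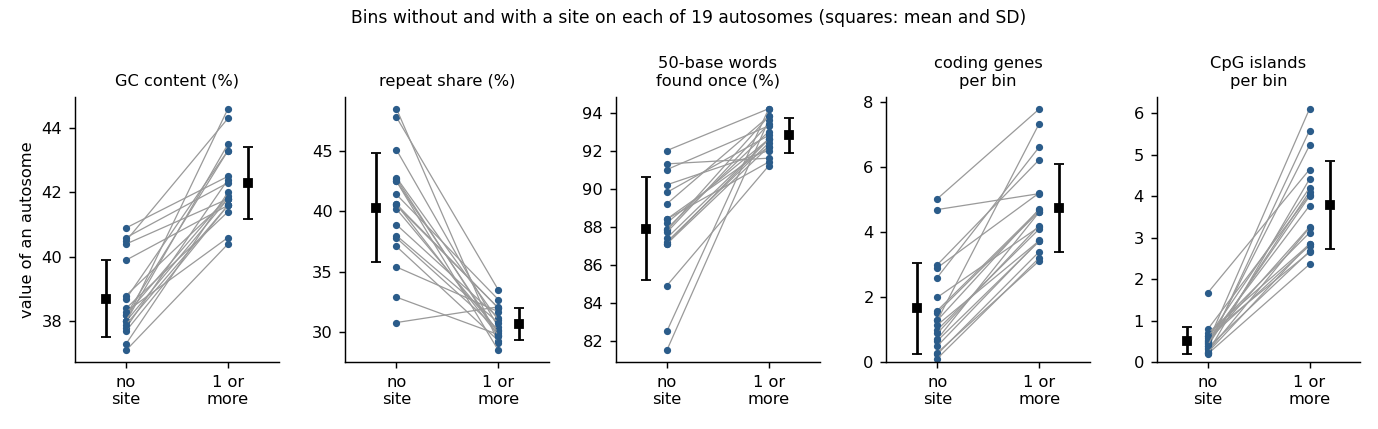
Values of the bins without a site and of bins with 1 or more sites on each of 19 autosomes (points joined by a line), for GC content, repeat share and share of 50-base words found once (medians of bins, percent), and for coding genes and CpG islands (means per bin). Squares with bars are the mean and SD over autosomes, and the axes of the first 3 panels do not start at 0. All lines rise for GC content, unique words, genes and CpG islands, and all but that of chromosome 16 fall for repeats.

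None of these 3 sequence measures separated the bins without a site from bins with few sites. In the 622 bins with 1 to 4 sites, the median GC content was 38.2%, the median repeat share 40.4% and the median share of unique words 88.0%, the last equal to that of the bins without a site. Over autosomes the differences from these bins were 0.182 ± 1.49 in GC content, opposite in sign to that above, 0.468 ± 4.66 in repeat share and -0.416 ± 3.05 in unique words (SD, n = 19, exact permutation test, adjusted p = 0.665 for each). On single autosomes the difference in GC content spanned -2.49 to 3.16.

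**Figure D4:**
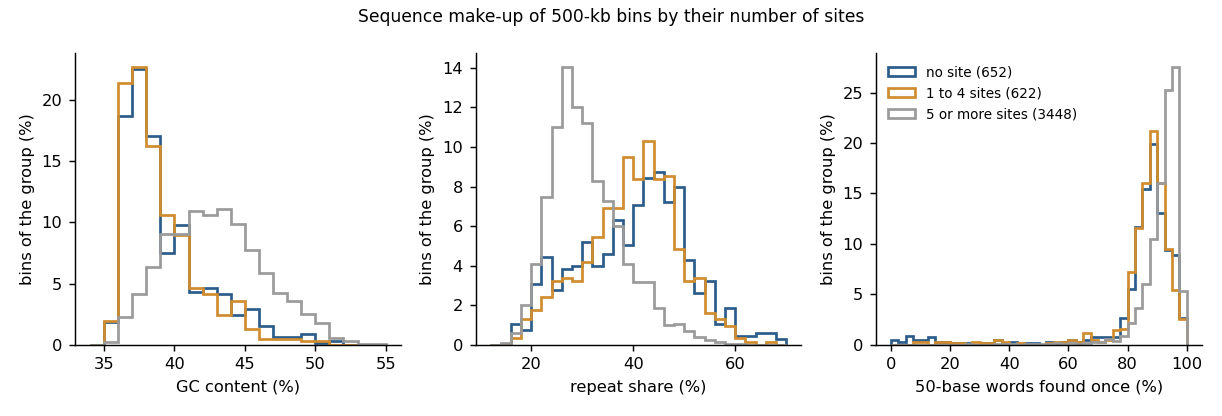
Distribution of bins of 500 kb (y axis, percent of the bins of a group) by GC content, repeat share and share of 50-base words found once (x axes, percent), for bins with no site, with 1 to 4 sites and with 5 or more. The outlines for no site and for 1 to 4 sites lie over each other, with medians of GC content of 38.3% and 38.2%, to the left of that for 5 or more sites in GC content and to the right in repeat share.

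Genes were fewer in the bins without a site. Of the 49893 genes of all types that start in the bins compared, 4523 started in these bins (9.07%), compared to the 13.8% of bins. Of the coding genes, 1182 of 20308 did so (5.82%, 95% Wilson interval 5.51 to 6.15%, which covers counting error only). The mean over autosomes was 1.66 ± 1.41 coding genes per bin without a site and 4.76 ± 1.35 in the others (SD, n = 19), lower on all 19 autosomes (exact permutation test, adjusted p = 4.77e-06). No coding gene started in 380 of the 652 bins (58.3%), compared to 19.1% of the other bins, and no gene of any type in 31 (4.75%). Against bins with 1 to 4 sites the difference was -0.575 ± 0.827 coding genes per bin, with lower values on 14 of 19 autosomes (exact permutation test, adjusted p = 0.037).

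CpG islands followed the genes. Only 158 bins without a site (24.2%) had a CpG island, compared to 75.5% of the others. The mean was 0.522 ± 0.325 compared to 3.78 ± 1.06 islands per bin (SD, n = 19), lower on all 19 autosomes (exact permutation test, adjusted p = 4.77e-06), and -0.343 ± 0.55 relative to bins with 1 to 4 sites, lower on 15 of 19 (exact permutation test, adjusted p = 0.037). A CpG island lay within 1 kb of the 5′ end of 152 of the 1182 coding genes (12.9%) and of 58.4% of the coding genes elsewhere. Of coding genes with a CpG island 1.34% started in a bin without a site, and of the 8987 without an island 11.5% did.

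The types of genes were represented unequally, relative to 9.07% for all genes. Pseudogenes were at 15.5% (1707 of 10993), with 30.0% of unprocessed pseudogenes, which are former gene copies (495 of 1651), and 13.2% of processed pseudogenes, which are retrotransposed (1146 of 8705). The share of processed pseudogenes was near the 13.8% of bins that had no site. Pseudogenes had a mean of 2.62 per bin without a site and 2.56 per bin with 1 to 4 sites. In all bins with at least 1 site the mean was 2.28. Long non-coding RNAs were at 6.14% (570 of 9278) and small RNAs at 7.03% (385 of 5474). Pseudogenes formed 37.7% and coding genes 26.1% of all genes in the bins without a site.

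By content, 61 bins (9.36%) contained a gene or pseudogene of a sensory or chemosensory receptor family, 8 more a segment of an antigen receptor, and in 211 more (32.4%) another coding gene started. No coding gene started in the remaining bins. Of these, 59 (9.05%) were covered over at least 50% of their length by the body of a coding gene that starts elsewhere and 24 over less, 268 (41.1%) held other genes only, and 21 (3.22%) held neither a gene start nor a coding gene body. In bins with sites, receptor families made up 3.86%, antigen receptor segments 0.27% and starts of another coding gene 76.9%. Among those without a coding start, 4.25% of all bins with sites were covered over at least 50% and 2.53% over less. Other genes only were held by 11.5%, and neither a gene start nor a coding gene body by 0.639%. The bodies of coding genes covered a median of 1.37% of a bin without a site and 47.2% of a bin with sites. The means were closer, at 22.5% and 44.4%.

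Receptor clusters contributed 531 of the 1182 coding genes (44.9%). These were 35.0% of the 1519 coding genes of 7 receptor families, compared to 5.82% of all coding genes and 3.46% of those outside the receptor families. Of 218 bins with a gene or pseudogene of these families, 61 (28.0%) had no site, compared to 13.8% of all bins. Bins with few sites were similar in this respect. Such genes lay in 9.36% of bins without a site and 6.59% of bins with 1 to 4 sites, at means of 1.11 and 0.99 per bin. In all bins with at least 1 site, the values were 3.86% and 0.32 per bin. These differences were not tested. The 69 bins without a site that held receptor or antigen receptor genes had a median repeat share of 49.4% and 79.8% unique words, while the other 583 had 40.3% and 88.4%. Without all bins of such clusters, the differences from bins with sites were -3.65 in GC content, 8.27 in repeat share and -3.53 in coding genes per bin.

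Olfactory receptors (Olfr), the odorant receptors of sensory neurons in the nose, accounted for 370 genes in 25 bins on 9 chromosomes. This was 32.8% of the 1128 Olfr genes on autosomes, with Olfr1408 and Olfr1406 the first in genome order. The 95% Wilson interval of 30.1 to 35.6% treats genes as independent. Neighbouring genes share bins, so it is too narrow and does not cover the spread between clusters. Chromosome 2 contributed 134 of its 294 genes, chromosome 7 contributed 89 of 244 and chromosome 9 contributed 77 of 132, whereas none of the 70 on chromosome 10 and of the 66 on chromosome 19 lay in a bin without a site. The largest cluster was on chromosome 2 from 86000001 to 88000000, a run of 4 bins with 96 Olfr genes, and its first bin alone held 29 and 18 pseudogenes. Sequence there was largely unique, at a median of 85.1% of words, and 331 of the 370 genes lay in bins with at least 80% unique words. Olfr genes elsewhere rarely had a site at their 5′ end as well, since 8 of the 758 in other bins had a site within 1 kb, compared to 56.4% of all coding genes in these bins.

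Vomeronasal receptors, which detect pheromones, were at 43.8% for type 1 (Vmn1r, 88 of 201, first Vmn1r60 and Vmn1r61) and 52.2% for type 2 (Vmn2r, 60 of 115, first Vmn2r10 and Vmn2r11). Chromosome 7 held 75 of the 88 Vmn1r genes, in 12 bins, while none of its 51 genes on chromosome 6 was in a bin without a site. Repeated sequence was found around many of these genes. Only 2 of the 88 Vmn1r genes lay in bins with at least 80% unique words and 49 in bins with fewer than 50%, and for Vmn2r these counts were 28 and 13 of 60. Bitter taste receptors were at 7 of 35 (Tas2r118 and Tas2r130 first), and none of the 15 trace amine receptors (Taar) started in a bin without a site.

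Other clustered families had 5 or more genes in these bins. All 22 alpha-defensins (Defa21 and Defa23 first), antimicrobial peptides of the intestine, and 23 of 41 beta-defensins (Defb18 and Defb41 first) were found there. So were 22 of 34 secretoglobins (Scgb2b7 and Scgb1b7), 8 of 11 Skint genes (Skint1 and Skint4) and 5 of 10 major urinary proteins (Mup16 and Mup17). Of the Skint genes, Skint1 acts in the selection of epidermal T cells. The counts were 13 of 48 for cytochromes P450 of family 2 (Cyp2b13 and Cyp2b9), 8 of 21 for sulfotransferases (Sult2a5 and Sult2a2), 7 of 17 for Nlrp genes (Nlrp4b and Nlrp4e) and 5 of 15 for Ceacam genes (Ceacam5 and Ceacam14). Sequence was repeated in several of these. No Defa, Scgb, Mup, Cyp2, Sult or Ceacam gene and 1 of the 7 Nlrp genes lay in a bin with at least 80% unique words. The bins of Defa, Scgb and Mup genes had medians of 37.4%, 30.6% and 37.2%, those of Cyp2, Sult and Ceacam genes 74.0%, 73.9% and 73.1%. All 8 Skint genes and 14 of the 23 Defb genes were in bins with at least 80%.

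**Figure D5:**
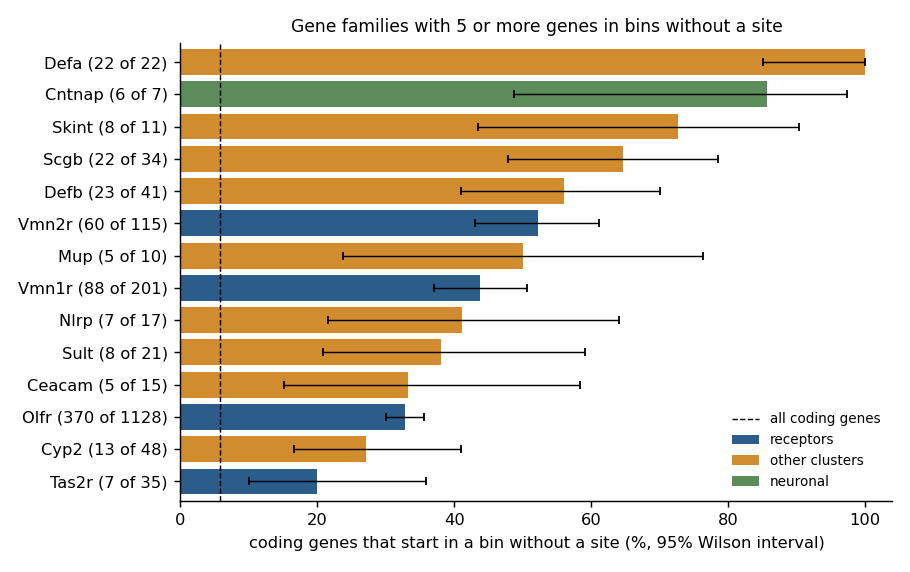
Share of the coding genes of a family that start in a bin without a site (x axis, percent, with 95% Wilson intervals), for the 14 families with 5 or more such genes (y axis, with counts). The intervals treat the genes of a family as independent, although many share a bin, and are too narrow for that reason. The dashed line is the share of all coding genes, 5.82%. All 14 families lie to the right of the line, from Tas2r at 20.0% to Defa at 100.0%. The choice of families by their count in these bins favours high shares. Families with fewer such genes, such as Zfp at 1.1%, are not drawn.

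Not all clustered families had genes in these bins, although a gene in another bin need not have a site near it. Of the 33 other clustered families examined, 15 had no gene in a bin without a site, of which 1 (Ssty) has no coding gene on the autosomes. Among them were 57 keratin-associated proteins, 53 keratins, 30 Clec and 26 Klr genes. Of these genes 4, 5, 5 and 1 in that order had a site within 1 kb of the 5′ end. The share was 56.4% for all coding genes in bins with sites. Of the 362 Zfp genes, 4 (1.1%) started in a bin without a site. Families of general or mesenchymal function were nearly absent. Of 417 genes of 12 such families, 2 (0.48%) started in a bin without a site, Col22a1, a collagen, and Bmp7, a growth factor. There were none of 54 Rpl and 40 Rps genes, which encode ribosomal proteins, 49 proteasome, 67 histone, 39 Hox and 25 integrin genes. In 6 transcription factor families, 4 of 101 genes (3.96%) did, near the 5.82% of all coding genes, and these were Sox17, Sox1, Foxd3 and Foxi1.

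Segments of antigen receptors, which are joined by recombination in lymphocytes only, were at 46.2% (228 of 494) and their pseudogenes at 62.0% (129 of 208), the highest shares among the gene types. Variable segments accounted for most, with 344 of 558 (61.6%, pseudogenes included), whereas 5 of 94 joining segments (5.32%) were in bins without a site. At the immunoglobulin heavy chain locus (Igh, chromosome 12) 157 of 185 variable segments and 2 of 32 other segments lay in such bins. At the T cell receptor alpha locus (Tra, chromosome 14) these counts were 89 of 128 and 0 of 61, and the median share of unique words in the bins concerned was 33.0%. It was 79.0% and 63.8% in the pair of runs with Igh segments and 78.2% in the bin with Igl. The loci differed, since all 12 segments of the lambda light chain (Igl, chromosome 16) and none of 53 of T cell receptor beta (Trb, chromosome 6) were in bins without a site.

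Of 396 genes in 26 families grouped as neuronal adhesion, channels and receptors, 37 (9.34%) started in a bin without a site, compared to 5.82% of all coding genes. The families were set by the start of the symbol, so they also include genes that are not particular to neurons. The difference was not tested. The contactin-associated proteins had 6 of 7, with Cntnap5b and Cntnap5a first, and all 6 lay in bins with at least 80% unique words. By contrast, none of 25 Cacn, 20 Ptpr and 14 Scn genes started there, and 2 of 67 protocadherins did. Of 216 coding genes of at least 500 kb, 64 extended into bins without a site and 43 started in them. For all coding genes these shares were 6.17% and 5.82%. A longer gene spans more bins, so the first count depends on gene length.

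The gene with most sequence in such bins was Cntnap2 on chromosome 6 (45059357 to 47304213, plus strand), with 1.94 of its 2.24 Mb, and its 5′ end was 1.39 Mb from the nearest site. Csmd1, a large membrane protein with complement-like domains, had 1.54 Mb, Cntn5 its whole length of 1.24 Mb, Nrxn3, a presynaptic neurexin, 1.11 Mb and Auts2 1.04 Mb. Lsamp and Ntm, both members of the IgLON family of neuronal adhesion molecules, had 1.02 and 0.963 Mb. Ptprt, a receptor tyrosine phosphatase, had 0.978 Mb. Of these genes, Cntnap2, Nrxn3 and Lsamp contained sites elsewhere in the gene, with 3, 2 and 8, and Csmd1, Cntn5, Auts2, Ptprt and Ntm had none.

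Genes with a long CpG island were the exception among the 1182 coding genes, and several encode regulators of embryonic development. Irx2, an Iroquois homeobox gene on chromosome 13 (72628820 to 72634198, plus strand), had the longest island at its 5′ end, 3674 bp, and was 0.699 Mb from the nearest site. Sox1, a factor of neural progenitors on chromosome 8, followed with 2475 bp and a distance of 240 kb. The next were Tfap2c (2452 bp), an AP-2 factor, the homeobox genes Barx2 (2385 bp) and Barhl2 (2370 bp), and Foxd3 (2187 bp), a forkhead factor of the neural crest. Zic1 (1908 bp), a zinc finger factor, was 863 kb from a site. Cadm1 (2143 bp) and Mdga2 (2018 bp) encode adhesion molecules, and Dpf3 (2023 bp), a chromatin remodelling subunit, was the closest of the 10 to a site, at 32.8 kb. Genes with an island beyond these 10 were not only developmental regulators. They included Zhx1 (99.2 kb from a site) and Atad2 (158 kb), both in the bin on chromosome 15 from 58000001 to 58500000. Others were Nfya and Oard1 (495 kb each) on chromosome 17 and Pgm1 (166 kb) on chromosome 4. Why no site was listed near these genes was not tested. Over all 1182 coding genes the distance from the 5′ end to the nearest site had a median of 473 kb, from 20.1 to 3080 kb, compared to 0.056 kb for the coding genes in other bins.

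Markers of cell types were examined as a check of the labelled cells. Of 16 fibroblast markers, 14 had a site within 1 kb of the 5′ end, whereas 1 of 11 neuronal, 1 of 8 epithelial, 0 of 10 T and B cell, 0 of 8 hepatocyte and 2 of 8 germ cell markers did. Lum, which encodes the matrix proteoglycan lumican, was the only fibroblast marker in a bin without a site. Its 5′ end was 201 kb from the nearest site, and its neighbour Dcn, which encodes decorin, had a site no closer than 115 kb. Among the other lists Rbfox3, which encodes the neuronal protein NeuN, was in such a bin at 111 kb from a site, and none of the remaining markers was.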

How the data were processed

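Per the labels, the samples were 12 H3K27ac and 2 input ChIP-seq libraries of iMEF cells. The authors trimmed and aligned the reads to mm10, merged replicates, called narrow peaks with MACS2 and joined the peaks of all samples; the threshold is not given in the sources used here. The deposited values are positions in base pairs (chromosome, start and end of 122228 sites), with no count, signal or score, so the depth is unknown. Starts were read as counted from 0, and positions are printed from 1.

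Sequence was GRCm38.p6 from RefSeq and genes were GENCODE M21, placed by their 5′ end. Repeats were soft-masked bases. CpG islands were runs in repeat-masked sequence scored 17 per CpG and -1 per other base (at least 200 bp, 50% GC, observed to expected CpG of 0.6). Unique words were those of 50 bases, sampled every 1000 bp, that occur once in the primary assembly on either strand. Families were matched by the start of the symbol. Differences per autosome (medians, means for counts per bin; at least 5 bins without a site) were tested by two-sided exact sign-flip permutation over autosomes with Benjamini-Hochberg adjustment over 5 measures; 3.81e-06 is the smallest p possible. Members, gene lists and tests were chosen with earlier results of these data known. Genes named were those in the 10 longest runs, the 10 with most bases in bins without a site, the 10 with the longest CpG islands, the first 2 of families with 5 or more such genes, and markers. Some named genes and a sequence under these rules are not reported here. For families with fewer such genes, those named were chosen after their values were seen. The procedures were tested on simulated data. Python 3.11.15 was used with numpy 2.4.6, pandas 2.3.3, scipy 1.17.1, numba 0.67.0 and matplotlib 3.10.9. Alternatives were other bins, limits on N, sites, words and gene positions.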

Additional observations from a re-analysis of the deposited data

Results flagged for a closer look

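The X chromosome was outside the autosomal bins compared and carried 2054 sites of the list. Of its 303 bins under the same limit on N, 116 (38.3%) had no site, in 43 runs of which the longest had 15 bins, or 7.5 Mb. The autosome with the highest share was chromosome 14 with 23.9%. The difference was not tested.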

How the results depend on the processing

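The 9 results were computed under 51 alternatives, of which 40 left them on the same side and in the same direction. The number of bins without a site was 2099 with bins of 250 kb and 162 with bins of 1 Mb, and between 564 and 756 under the other alternatives with bins of 500 kb. The longest run was 5.5 Mb under the 3 alternatives tried. The share of coding genes was 6.65% without the narrowest 25% of sites, 5.42% for whole genes inside, 6.17% for any overlap and 3.79% in bins with at least 80% unique words, an alternative chosen after seeing the data, and the share of Olfr genes was 38.8% with shifted bins, 38.7% without the narrowest sites and 34.9% in bins with unique words. Relative to bins with 1 to 4 sites, the difference in GC content turned to 0.182 and those in repeat share and unique words were 0.468 and -0.416, no longer past the threshold (exact permutation test, adjusted p = 0.665); the cause was not tested. The other 28 alternatives of the 5 tests kept direction and call. Adjusted p-values over all alternatives were from 3.81e-06 to 0.665. No paired analysis was possible because values per sample were not in the table used, and for the same reason the alternatives that leave out a replicate were not run. Read depth and peak threshold, which limit whether weak sites were listed, are unknown.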

Other observations

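Among RNA genes, long intergenic RNAs had a higher share in bins without a site than antisense RNAs. Of 5130 lincRNA genes 430 (8.38%) started there, compared to 96 of 2873 antisense genes (3.34%) and 0 of 190 genes at bidirectional promoters. These classes are defined by position relative to coding genes, of which 5.82% started in such bins, so their shares are not independent of that value. MicroRNA genes were at 6.12% (123 of 2010) and rRNA genes at 7.5% (24 of 320), relative to 9.07% of all genes. These differences were not tested.

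Gene content is given here by the length of the run. Bins on their own had a mean of 2.16 coding genes and a median GC content of 39.5%, bins of runs of 2 to 3 had 1.44 and 38.9%, and bins of runs of 4 or more had 1.93 and 37.5%. No coding gene started in 51.6%, 59.1% and 62.9% of these bins. The differences were not tested.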
